A study of Mus musculus with 9 samples.

Results

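The genes described here are the 37 genes of the mouse mitochondrial genome, taken as every symbol in the count table that begins with mt-, out of 54429 symbols in all. They were measured by RNA-seq in 9 whole tumors grown under the skin of C57BL/6 wild-type mice from 4000000 cells of NB9464, a MYCN-amplified line of mouse neuroblastoma. Treatment began when tumors reached 250 mm3, with 3 tumors in each of 3 groups. These were vehicle, R788 + anti-PDL1 and the same pair of agents after radiation (Rad + R788 + anti-PDL1, called irradiated tumors here). R788 (fostamatinib) inhibits the kinase Syk and was dosed at 50 mg/kg, the antibody blocks the checkpoint ligand PD-L1, and the radiation dose was 10 Gy. All tumors came from 1 cell line in hosts of 1 genotype, and no group had radiation, R788 or the antibody alone, so the parts of each combination cannot be told apart. The labels did not say whether replicates were separate mice, so p-values measure the spread between these samples, which may be technical in part.

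The mitochondrial genome is a small circle present in many copies per cell. It encodes subunits of the respiratory chain and of ATP synthase, together with the rRNAs and tRNAs of the ribosome that translates them, and all other mitochondrial proteins are made from nuclear genes. Each strand is transcribed as a long precursor, which is cut mostly at its tRNAs. Many of the mRNA and rRNA pieces receive short poly(A) tails from the polymerase encoded by Mtpap. For some mRNAs the tail also completes the stop codon. Libraries made by poly(A) selection, as the labels state for these, read RNA through such tails.

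The annotation (GENCODE M21, GRCm38, which is mm10) held all 37 genes on chromosome M. They comprised 13 mRNAs, 2 rRNAs and 22 tRNAs, with 28 genes on the plus strand and 9 on the minus strand. Of the 13 mRNAs, 7 encode subunits of complex I (mt-Nd1 to mt-Nd6 and mt-Nd4l), 1 of complex III (mt-Cytb), 3 of complex IV (mt-Co1 to mt-Co3) and 2 of ATP synthase, also called complex V (mt-Atp6 and mt-Atp8). A pair of mRNAs carries more than 1 reading frame, and the shared bases bear on how reads were assigned. The gene mt-Atp8 (chrM:7766-7969, plus strand) shares its last 43 bases with mt-Atp6, and mt-Nd4l shares its last 7 bases with mt-Nd4. The shared bases are in capitals in the following sequences, the first a whole gene and the other its last 60 bases (chrM:10114-10173).
mt-Atp8: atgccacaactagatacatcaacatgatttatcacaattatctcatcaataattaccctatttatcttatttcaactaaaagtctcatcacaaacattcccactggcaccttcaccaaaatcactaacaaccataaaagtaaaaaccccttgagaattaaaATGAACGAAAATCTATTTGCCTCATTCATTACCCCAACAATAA
mt-Nd4l: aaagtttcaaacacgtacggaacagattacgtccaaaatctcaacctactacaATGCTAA

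In the annotated transcripts, 10 of the 13 mRNAs ended in a complete stop codon. The other 3 ended 1 base into it, with a single T (a capital below) that the poly(A) tail extends to a stop codon. The last 25 bases of these genes lay at chrM:9366-9390, chrM:11520-11544 and chrM:15264-15288, all on the plus strand.
mt-Co3: gtctccatttattgatgaggatctT
mt-Nd4: aaactaattacaggcctgacaataT
mt-Cytb: gacaaaatactaaaattatatccaT

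Total counts ranged from 18276683 to 23397886 per library, so 3 counts, the limit that a count of 0 allows, equaled 0.128 to 0.164 CPM (counts scaled to 1000000 per library). This limit covers counting error only. The first irradiated library (Rad + R788 + anti-PDL1 replicate 1) stood apart from the other 8, with a TMM scaling factor of 0.743 against 0.975 to 1.12 and 18263 genes detected against 19732 to 22129. Values that rest on it are therefore given with and without it. Among noradrenergic neuroblast markers, Th was at 0 in every library, Dbh reached 1 count and Phox2a 3 counts, whereas Mycn had 1265 to 6107 counts, Hand2 6545 to 12901 and Gata3 4 to 206. Hand2 had 6545 to 7867 counts in vehicle, 9752 to 12901 in R788 + anti-PDL1 and 10345 to 11758 in irradiated tumors. Mycn and Gata3 counts in vehicle overlapped both other groups. The 8 markers of this list summed to 480 to 597 CPM in vehicle, below R788 + anti-PDL1 (660 to 753 CPM) and irradiated tumors (667 to 723 CPM). Isl1 had 0 counts in every vehicle tumor, 48 to 80 in R788 + anti-PDL1 and 14 to 27 after radiation, and its difference between R788 + anti-PDL1 and vehicle passed the test (adjusted p = 0.0344). The summed level of 7 skeletal muscle markers was 587 CPM in the first irradiated library, 173 to 180 CPM in the other irradiated tumors and 45.3 to 78.7 CPM in the remaining groups. The 5 erythroid markers summed to 199 to 609 CPM in vehicle, 61.1 to 122 CPM in R788 + anti-PDL1 and 52.4 to 136 CPM in irradiated tumors. Other marker lists separated R788 + anti-PDL1 from vehicle as well, by sums scaled to total counts. No macrophage, endothelial, T cell, B cell or neutrophil marker was called by edgeR in any comparison. The 7 macrophage markers summed to 653 to 714 CPM in R788 + anti-PDL1 against 279 to 587 CPM in vehicle, with 353, 323 and 1780 CPM in irradiated tumors. The 5 endothelial markers summed to 44.6 to 123 against 32.2 to 43.0 CPM, but these sums overlap once divided by the TMM factors. The 6 T cell markers summed to 4.62 CPM or more against 1.67 to 3.87 CPM and the 4 B cell markers to 2.27 to 3.55 against 1.06 to 1.61 CPM. The 4 neutrophil markers were lower, at 1.58 to 2.88 against 3.76 to 9.67 CPM. In irradiated tumors these 4 lists summed to 32.0 to 62.0, 1.37 to 34.0, 1.21 to 3.43 and 1.75 to 17.1 CPM. By total counts, the 6 adipocyte markers were lower in irradiated tumors (10.9 to 18.8 CPM) than in R788 + anti-PDL1 (24.3 to 30.0 CPM), with 17.5 to 42.2 CPM in vehicle. Divided by the TMM factors, the adipocyte sums of the treated groups overlap. The 4 keratinocyte markers were higher in irradiated tumors (50.0 to 56.1 CPM) than in vehicle (4.88 to 7.53 CPM), with 1.99 to 70.7 CPM in R788 + anti-PDL1. The 6 fibroblast markers, at 1860 to 6000 CPM, overlapped in all comparisons. The part of these cell types in the mitochondrial values was not tested, and in whole tumors fewer cells of a type and less RNA per cell cannot be told apart.

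Mitochondrial genes took 3.48%, 4.63% and 4.43% of all counts in vehicle replicates 1 to 3. They took 4.38%, 5.71% and 4.70% in R788 + anti-PDL1, and 1.97%, 4.15% and 3.79% in irradiated tumors. The mean share was thus 4.18% ± 0.614 in vehicle, 4.93% ± 0.691 in R788 + anti-PDL1 and 3.30% ± 1.17 in irradiated tumors (SD, n = 3 each). R788 + anti-PDL1 overlapped vehicle and exceeded it by 0.75 percentage points on average, a difference that was 0.40 without vehicle replicate 1 and 0.36 without R788 + anti-PDL1 replicate 2. The mRNAs alone did not overlap between these groups, at 3.42%, 4.13% and 4.02% of all counts in vehicle and 4.25%, 5.61% and 4.58% in R788 + anti-PDL1, whereas the rRNAs took 0.0544%, 0.500% and 0.409% in vehicle and 0.0961% to 0.130% in R788 + anti-PDL1. Complexes I, III and IV did not overlap either, and complex V did. These separations hold for shares of total counts, without a share over all genes beside them. TMM factors were 0.975 to 0.989 in vehicle and 1.05 to 1.12 in R788 + anti-PDL1, so TMM scaling brings these groups closer. By TMM-scaled CPM, 3 of 15 members did not overlap. The only complex III gene, mt-Cytb, overlapped on that scale (3470 to 3880 CPM in vehicle against 3840 to 4860 CPM). Divided by the TMM factors, the mRNA sums and complexes I and IV overlap between these groups as well. For the mRNAs, R788 + anti-PDL1 replicate 1 (4.25%, factor 1.05) then falls below vehicle replicate 2 (4.13%, factor 0.989). Every irradiated tumor had a lower share than every R788 + anti-PDL1 tumor. That difference was 1.63 percentage points in size, against a pooled within-group SD of 0.861, and the irradiated group differed from R788 + anti-PDL1 by -0.96 without its first library. Irradiated tumors overlapped vehicle, with a difference of -0.87 percentage points that was -0.21 without the first irradiated library. No test was made of the shares, since with 3 tumors a group the smallest p of an exact permutation test is 0.1.

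The 13 mRNAs made up nearly all of these counts. They were 98.4%, 89.2% and 90.8% of mitochondrial counts in vehicle replicates 1 to 3, and 97.0% to 98.3% in the treated tumors. The remainder came from the rRNAs, since all 22 tRNAs, 59 to 75 bases long, were at 0 in all libraries (198 of 198 values). Within the mRNA counts, complex IV subunits took 38.8% to 49.2%, complex I subunits 30.1% to 37.3%, ATP synthase subunits 11.8% to 15.4% and complex III 5.30% to 11.1%. Without the first irradiated library these ranges were 38.8% to 44.9%, 31.7% to 37.3%, 11.8% to 14.6% and 9.28% to 11.1%. ATP synthase mRNAs took 11.8% to 12.3% of mRNA counts in R788 + anti-PDL1, below every vehicle tumor (mean 13.7% ± 0.777, SD, n = 3) and every irradiated tumor (13.9% to 15.4%). This is a share of the mRNA sum, which also moves with the other mRNAs, and no share over all genes stands beside it. By TMM-scaled CPM, mt-Atp6 and mt-Atp8 overlapped between R788 + anti-PDL1 and vehicle, with log2 fold changes of -0.01 and -0.06. By single genes, mt-Co1 had the highest share of all counts in 8 of the 9 libraries, from 0.796% to 1.44%, and only 0.108% in the first irradiated library.

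**Figure D1:**
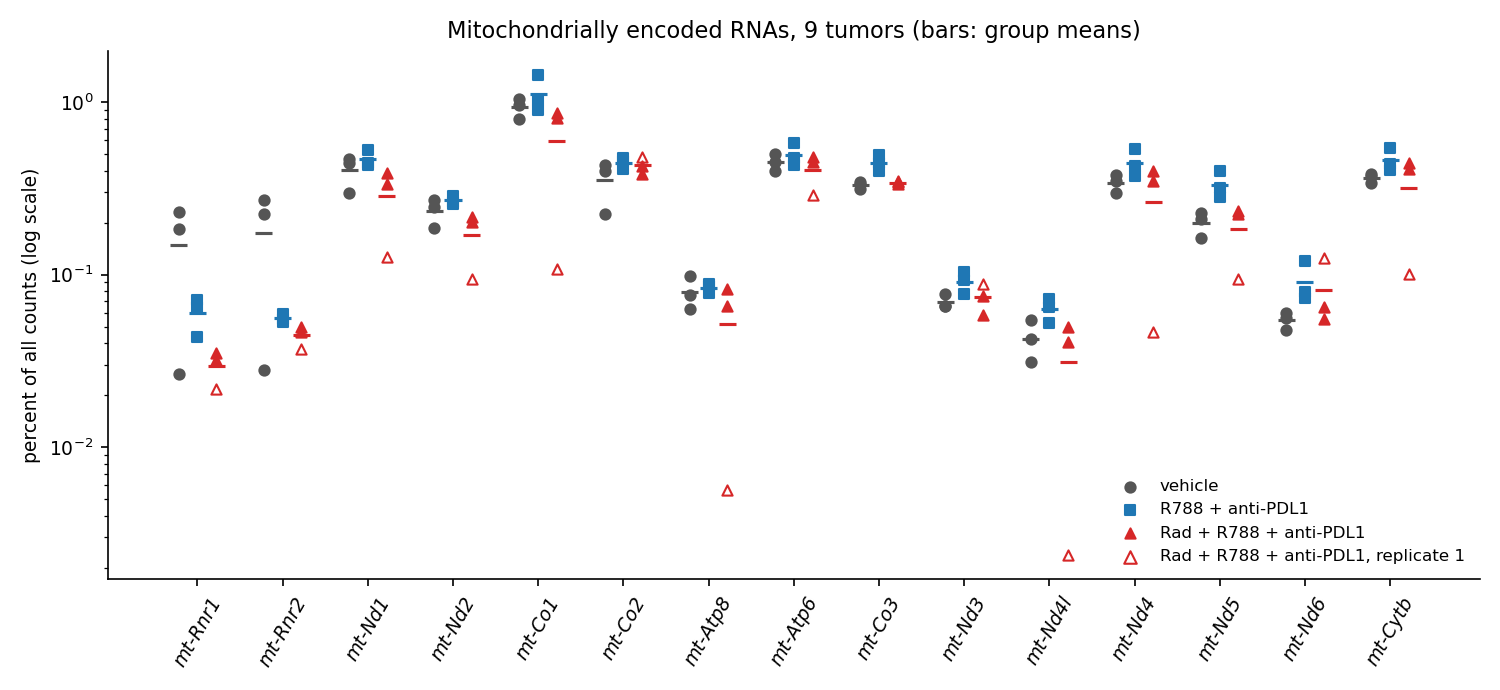
Percent of all counts (log scale) taken by each of the 13 mitochondrial mRNAs and 2 rRNAs in 9 tumors, in genome order, with a point per tumor, a bar for each group mean and an open triangle for the first irradiated library. That library lies far below the other 8 for mt-Co1, mt-Atp8, mt-Nd4l and mt-Nd4, and 2 vehicle tumors lie above all others for the rRNAs.

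Levels can be compared between genes only per length, so CPM by total counts was also divided by the annotated gene length in kb. By the median of 9 tumors in CPM per kb, the order from the top was mt-Atp6 (6580), mt-Co2 (6190), mt-Co1 (5820), mt-Nd1 (4520), mt-Co3 (4360), mt-Atp8 (3830) and mt-Cytb (3530). Next came mt-Nd4 (2720), mt-Nd2 (2360), mt-Nd3 (2220), mt-Nd4l (1680), mt-Nd5 (1250) and mt-Nd6 (1250), and the rRNAs were lowest at 453 for mt-Rnr1 and 334 for mt-Rnr2. Neighbors in this order had overlapping ranges in every case once the first irradiated library was left out. The top rank depended on how reads were divided between mt-Co2 and an identical nuclear copy, described further on. With counts of nuclear copies added to their genes, an alternative chosen after seeing the data, mt-Co2 came first (7830), before mt-Atp6 (6620) and mt-Co1 (5940). The ends of the order did not overlap without that library, since mt-Atp6 ranged from 5870 to 8470 and mt-Nd5 from 891 to 2180. The low rank of the rRNAs is the rank of RNA recovered through poly(A) selection, not of rRNA in the cell.

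The first comparison asked how R788 + anti-PDL1 tumors differed from vehicle. None of the 15 members tested passed an adjusted p of 0.05 in edgeR, against 108 of all 15931 genes tested (0.678%). An unadjusted p under 0.05 was reached by 2 members, both rRNAs, against 11.7% of all genes. DESeq2 called 0 of the 15 (4.83% of all genes) and limma-voom 0 (0.697% of all genes). With sample quality weights, voom called 5 members, where it called 30.3% of all genes: mt-Co3, mt-Nd3 and mt-Nd5 higher and both rRNAs lower. The fitted log2 fold change was above 0 for 11 of 13 mRNAs, with a median of 0.19 against -0.02 over all genes tested, and the 13 values share their libraries. The 2 mRNAs below 0, mt-Atp6 (-0.01) and mt-Atp8 (-0.06), changed sign under other scalings.

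The mRNA furthest from 0 was mt-Nd5, which encodes a proton-pumping subunit of complex I. Its TMM-scaled CPM was 1670, 2310 and 2140 in vehicle and 2690, 3560 and 2910 in R788 + anti-PDL1. The groups did not overlap, yet the log2 fold change of 0.58 (SE 0.28) did not pass (adjusted p = 0.487). The levels of 2 further members did not overlap, both higher in R788 + anti-PDL1. These were mt-Co3, a complex IV subunit, at 3510, 3400 and 3190 CPM in vehicle against 3800, 4430 and 4100 CPM (log2 fold change 0.29, adjusted p = 0.733), and mt-Nd6, the only mRNA of the minus strand, at 490, 608 and 575 CPM against 695, 1070 and 730 CPM (0.58, adjusted p = 0.683). The 3 of 15 members without overlap, 20.0%, compare with 30.1% of all genes tested.

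The next comparison, irradiated tumors against vehicle, again gave 0 of 15 members called in edgeR, against 7 genes of all tested (0.0439%). An unadjusted p under 0.05 was reached by the 2 rRNAs, against 13.2% of all genes. DESeq2 called both rRNAs lower (adjusted p = 0.00844 for mt-Rnr1 and 0.0456 for mt-Rnr2), where it called 3.84% of all genes. So did voom with quality weights (12.5% of all genes), and limma-voom without weights called neither (0.0753% of all genes). No member separated the groups, against 20.5% of all genes. The median log2 fold change of the mRNAs was -0.23, with 4 of 13 above 0, against 0.05 over all genes. Without the first irradiated library the median was -0.03, with 6 of 13 above 0, and 0 members were called (0.343% of all genes).

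The third comparison set irradiated tumors against R788 + anti-PDL1 tumors, which differ by the radiation. edgeR called 0 of 15 members, against 1 gene of all tested (0.00628%), and 1 member, mt-Nd5, had an unadjusted p under 0.05, against 18.4% of all genes. DESeq2 called 0 (5.16% of all genes), as did limma-voom (0.0502% of all genes), whereas quality weights gave 3 members lower, mt-Co3, mt-Nd3 and mt-Nd5 (19.3% of all genes). The median log2 fold change was -0.51, with 2 of 13 mRNAs above 0, and it was -0.32, with 0 of 13 above 0, when the first irradiated library was left out, again with 0 members called (0.126% of all genes). The median over all genes was 0.04, and 0.03 without that library. The levels of 6 members, 40.0%, were lower in every irradiated tumor than in every R788 + anti-PDL1 tumor, against 27.4% of all genes without overlap in either direction. These members were mt-Rnr1, mt-Nd1, mt-Nd2, mt-Co1, mt-Nd4l and mt-Nd5.

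For mt-Nd5, the irradiated tumors had 1260, 2250 and 2080 CPM against 2690 to 3560 in R788 + anti-PDL1, a log2 fold change of -0.71 (SE 0.28, adjusted p = 0.249). It was -0.49 without the first irradiated library. The core complex I genes mt-Nd1 and mt-Nd2 had log2 fold changes of -0.59 and -0.51, and -0.32 for each without that library. For mt-Co1, the catalytic subunit of complex IV, the value of -0.83 (SE 0.54) became -0.37 without that library, and -0.50 in all 9 tumors when counts of its nuclear copy were added. Against vehicle the copy moved it from -0.72 to -0.37. The 95% intervals of all 3 comparisons were wide: for mt-Co1 against R788 + anti-PDL1 the interval ran from -2.04 to 0.38 on the log2 scale.

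**Figure D2:**
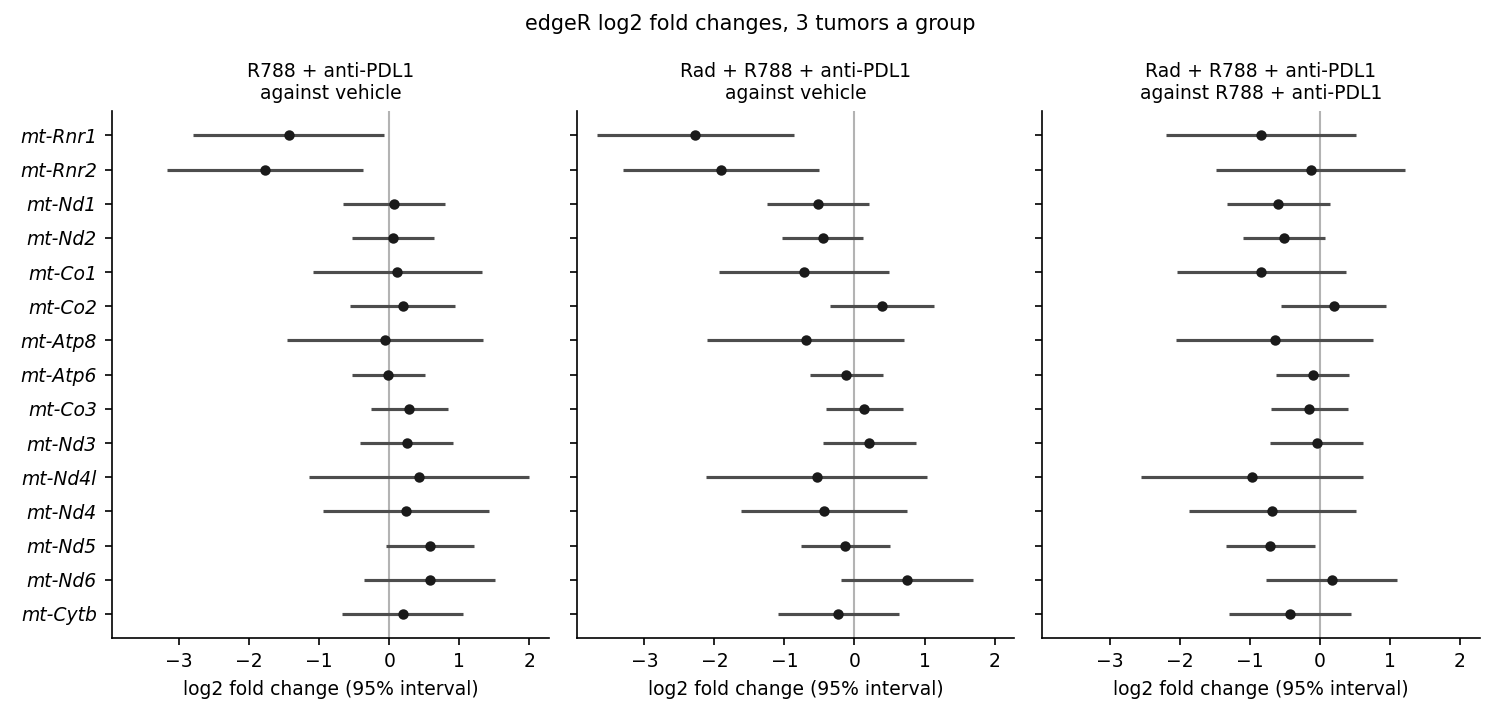
Log2 fold changes from edgeR (points) with 95% intervals (lines) for the 13 mitochondrial mRNAs and 2 rRNAs in the 3 comparisons, 3 tumors a group. Intervals leave out 0 for both rRNAs in the comparisons with vehicle and for mt-Nd5 in the last panel, and no adjusted p-value was under 0.05.

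The rRNAs varied widely between tumors, and the spread lay within the vehicle group. The highest tumor was 8.60 times the lowest for mt-Rnr1 and 9.50 times for mt-Rnr2. For the mRNAs this factor was 1.33 to 20.1 over all 9 tumors and 1.26 to 2.18 without the first irradiated library, which left the rRNA factors as they were. The level of mt-Rnr1, the small-subunit rRNA of the mitochondrial ribosome, was 272, 2340 and 1890 CPM in vehicle replicates 1 to 3. It was 676, 387 and 598 CPM in R788 + anti-PDL1 and 294, 339 and 296 CPM in irradiated tumors. For mt-Rnr2, the large-subunit rRNA, the values were 286, 2720 and 2290 CPM, then 563, 472 and 512 CPM, then 500, 482 and 430 CPM. Vehicle replicates 2 and 3 thus stood above the highest of the other 7 tumors by 2.79 times or more for mt-Rnr1 and 4.06 times or more for mt-Rnr2, whereas vehicle replicate 1 was the lowest tumor for both on this scale. For none of the 13 mRNAs did both of these tumors exceed the other 7.

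Log2 fold changes against vehicle rest on this uneven group. They were -1.44 (SE 0.61, adjusted p = 0.398) for mt-Rnr1 and -1.77 (SE 0.62, adjusted p = 0.287) for mt-Rnr2 in R788 + anti-PDL1, and -2.27 (SE 0.63, adjusted p = 0.229) and -1.91 (SE 0.62, adjusted p = 0.285) in irradiated tumors. Without vehicle replicate 1, edgeR called both rRNAs lower in both comparisons, with log2 fold changes from -2.76 to -1.91 and adjusted p-values from 0.0153 to 0.0435, where it called 0.449% and 0.132% of all genes. Without vehicle replicate 2, or without replicate 3, it called 0 members in either comparison, and 0 and 1 of all genes. Over single omissions, the values in R788 + anti-PDL1 ran from -1.91 to -0.97 for mt-Rnr1 and -2.26 to -1.32 for mt-Rnr2. In irradiated tumors they ran from -2.76 to -1.80 and from -2.40 to -1.46. The ratio of mt-Rnr1 to mt-Rnr2 counts moved little beside the levels, from 0.824 to 0.951 in vehicle, 0.821 to 1.20 in R788 + anti-PDL1 and 0.589 to 0.704 in irradiated tumors. The irradiated ratios overlapped neither other group.

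A gene of the RNA-processing list was also highest in vehicle replicates 2 and 3. Unlike the rRNAs, its level in vehicle replicate 1 too exceeded every treated tumor. Vehicle thus overlapped neither R788 + anti-PDL1 nor irradiated tumors, as was so for 30.1% and 20.5% of all genes tested. Mtpap, which encodes the mitochondrial poly(A) polymerase, had 56.3, 170 and 153 CPM in vehicle replicates 1 to 3, against 45.1 to 49.8 CPM in R788 + anti-PDL1 and 29.3 to 42.2 CPM in irradiated tumors. Its log2 fold changes against vehicle were -1.41 (SE 0.36, adjusted p = 0.134) and -1.75 (SE 0.37, adjusted p = 0.144). The lower of vehicle replicates 2 and 3 was 2.72 times the highest other tumor. Of 15931 genes tested, 37 (0.232%) were at least 2 times higher in both of these tumors than in any other. Mtpap was not alone in its neighborhood: of 9 tested genes annotated within 1000000 bases of it, itself included, Svil (583 and 529 CPM against 98.5 to 231) and Zfp438 (18.1 and 16.5 CPM against 4.79 to 7.11) also passed that mark, and were picked out after their values were seen. Jcad, Gm26682, Map3k8 and Cul2 fell short of the mark but were also highest in these tumors. For them the lower of vehicle replicates 2 and 3 was 1.99, 1.86, 1.61 and 1.59 times the highest other tumor. Bambi and Gm10557 overlapped the other tumors. Of nuclear-retained RNAs, Neat1 was higher in these tumors, at 355 and 318 CPM against 90.2 to 163 CPM, but Malat1 (274 and 222 CPM against 126 to 349) and Kcnq1ot1 (28.0 and 18.8 CPM against 9.00 to 36.5) overlapped the others. The 7 nuclear-retained and non-coding RNAs of that list summed to 232, 652 and 550 CPM in vehicle and 209 to 529 CPM in the other groups. The part of any of these in the rRNA values was not tested.

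**Figure D3:**
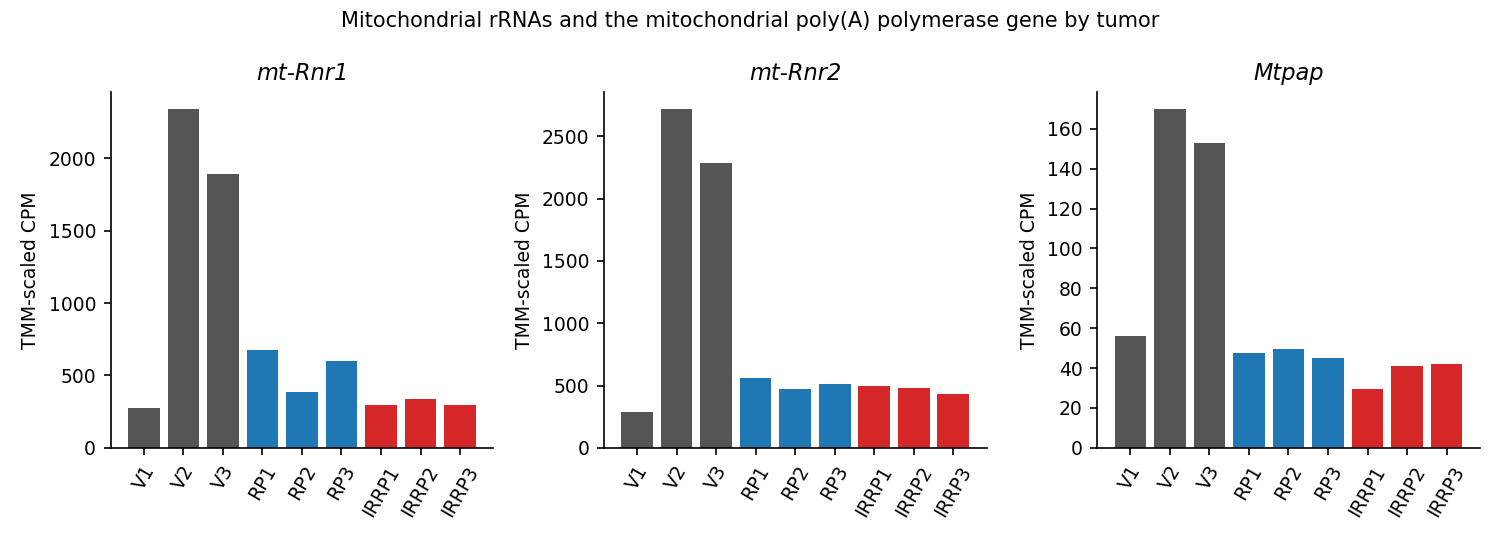
TMM-scaled CPM of mt-Rnr1, mt-Rnr2 and Mtpap in each tumor, a bar per tumor (V for vehicle, RP for R788 + anti-PDL1, IRRP for irradiated, each with its replicate number). Vehicle replicates 2 and 3 are the highest bars in each panel. Vehicle replicate 1 is the lowest bar for both rRNAs but lies above every treated tumor for Mtpap.

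The first irradiated library differed from all others in which mitochondrial RNAs it lacked. Its share of counts, as a percent of the median of the other 8 tumors, was 4.62% for mt-Nd4l, 7.04% for mt-Atp8, 11.6% for mt-Co1, 12.3% for mt-Nd4, 24.8% for mt-Cytb, 29.0% for mt-Nd1, 37.2% for mt-Nd2 and 40.6% for mt-Nd5. The remaining mRNAs kept 62.5% (mt-Atp6), 102% (mt-Co3), 116% (mt-Co2 and mt-Nd3) and 198% (mt-Nd6). Genes that begin 800 bases or more from the annotated 3′ end of their mRNA were the 8 low ones, and the 5 others begin nearer to it. These values leave out nuclear copies, described further on. With its copy added, mt-Co1 was at 0.468 times the median of the other 8 tumors.

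The same difference lay between frames that share an mRNA. mt-Atp8 is only 204 bases long but lies upstream of mt-Atp6 on a shared mRNA, so its start is 842 bases from the end. The ratio of mt-Atp8 to mt-Atp6 counts was 0.0197 in the first irradiated library and 0.148 to 0.195 in the other 8. For mt-Nd4l, 297 bases long and upstream of mt-Nd4, the start is 1668 bases from the end, and its ratio to mt-Nd4 was 0.0512 against 0.105 to 0.152. A different case is mt-Nd6, which shares 14 bases with mt-Nd5 on the opposite strand. Its ratio to mt-Nd5 was 1.32 against 0.246 to 0.301, and because no source gives the strandedness of the libraries, reads of mt-Nd6 cannot be told apart from reads of the mt-Nd5 strand that run past that gene.

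Across the 13 mRNAs of this library, the log2 of its share over the median of the other tumors had a Pearson correlation of -0.72 and a Spearman correlation of -0.74 with the log2 distance. The same Pearson value for each other library lay between -0.38 and 0.51. These points share a library and several share an mRNA, so the values are descriptive. Counts of nuclear copies were not added to them. Among nuclear protein-coding genes, the first irradiated library had a median log2 ratio to the other tumors of 0.95 for transcripts under 1000 bases (677 genes), 0.28 from 1000 to 2000 bases (2698 genes), -0.46 from 2000 to 4000 bases (5543 genes) and -1.06 at 4000 bases or more (4750 genes). In the other 8 libraries these medians ranged from -0.25 to 0.26. The mitochondrial mRNAs at 800 bases or more had a median of -2.52, and the nearer ones 0.21. The distance limit and length classes were set after the values were seen, and the cause was not tested.

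**Figure D4:**
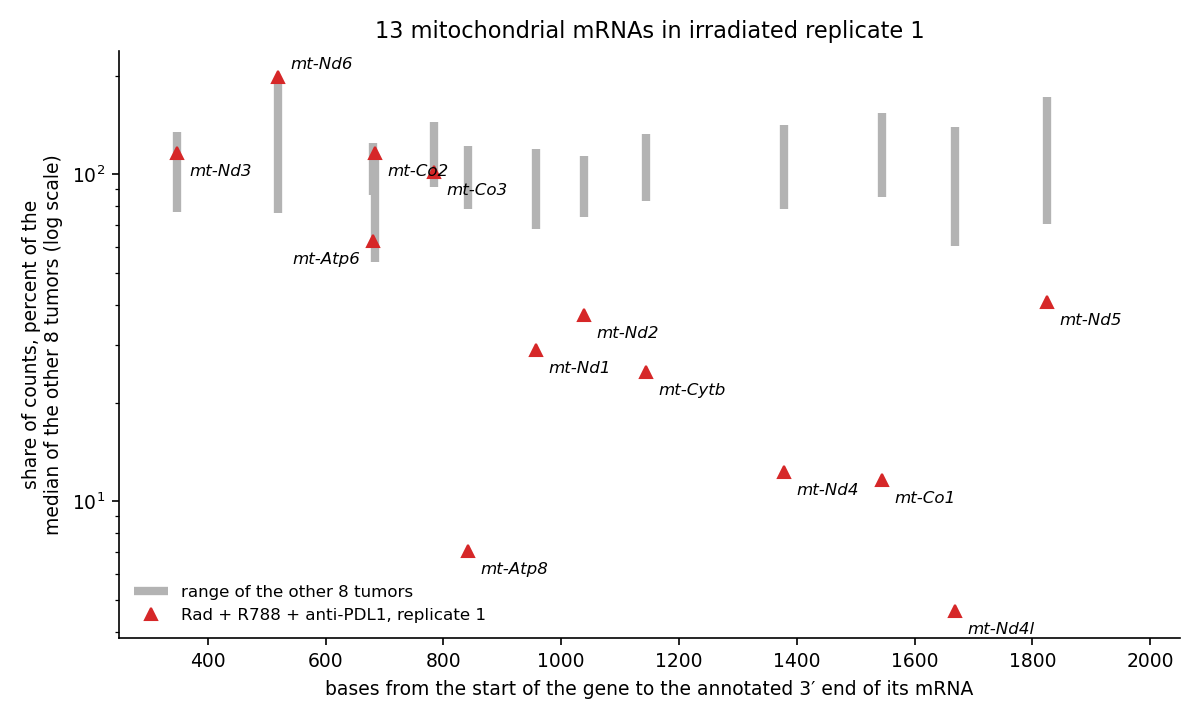
Share of counts of each mitochondrial mRNA in the first irradiated library, as a percent of the median of the other 8 tumors (log scale), against the bases from the start of the gene to the annotated 3′ end of its mRNA, with grey bars for the range of the other 8. The 5 genes that start within 800 bases of the end lie between 62.5% and 198%, and the 8 that start further away lie between 4.62% and 40.6%. Counts of nuclear copies are not added.

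Reads of some mitochondrial genes can also be assigned to copies of mitochondrial DNA in nuclear chromosomes. By sequence match at 95% identity or more over at least 200 bases, 11 annotated nuclear genes were such copies. Of these, 7 lie in a block on chromosome 1 (chr1:24611535-24616197, minus strand, 4663 bases). The 6 copies with 100 counts or more in any library were all in this block, and the other 5 reached at most 8 counts. All are annotated as pseudogenes. Gm28661 matched mt-Co2 over 681 bases with 100% identity, and Gm29216 matched the last 483 bases of mt-Co1 with 1 mismatch. Positions are counted from 1 at the first base of mt-Co1, and the mismatch is A1066T. The 60 bases around it are shown to let the identity be seen, from chrM:6390-6449 (plus strand) and chr1:24616129-24616188 (minus strand), with the differing base in capitals.
mt-Co1: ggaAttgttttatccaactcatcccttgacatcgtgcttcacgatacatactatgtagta
Gm29216: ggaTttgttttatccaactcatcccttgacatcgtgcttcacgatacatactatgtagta

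Copies took 0.0836%, 0.329% and 0.0777% of all counts in vehicle replicates 1 to 3. They took 0.150%, 0.352% and 0.240% in R788 + anti-PDL1 and 0.469%, 0.138% and 0.107% in irradiated tumors, so no group stood apart. The split between gene and copy differed by tumor. In vehicle replicate 2, Gm28661 had 69754 counts, 57.8% of its sum with mt-Co2, whereas in the other tumors it held 10.1% to 35.2%. That tumor also had the lowest mt-Co2 level, 2290 CPM against 3550 to 6520 CPM elsewhere. Its sum of mt-Co2 and Gm28661 was 0.536% of all counts, within the 0.445% to 0.676% of the other tumors.

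When gene and copy were added, mt-Co2 was higher in every R788 + anti-PDL1 tumor (0.601% to 0.676% of all counts) than in every vehicle tumor (0.445% to 0.536%). In edgeR the summed counts had a log2 fold change of 0.24 (adjusted p = 0.813), against 0.19 (adjusted p = 0.880) for mt-Co2 alone. For mt-Co1, the first irradiated library had 61420 counts at Gm29216, 75.6% of the sum, where the other tumors had 1.25% to 5.31%. The sum was 0.444% of all counts there and 0.827% to 1.52% elsewhere, so the share of mt-Co1 sequence was low in that tumor with the copy included. Gm28439, identical to the first 876 bases of mt-Nd4, was at 0 in 7 libraries and had 10641 counts in R788 + anti-PDL1 replicate 2 and 2289 in the first irradiated library. Gm28437 (mt-Co3) had 0 to 2840 counts, Gm10925 (mt-Atp6) 0 to 502 and Gm28438 (mt-Nd3) 0 to 112. None of the 5 copies that passed the count filter was called in any comparison.

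**Figure D5:**
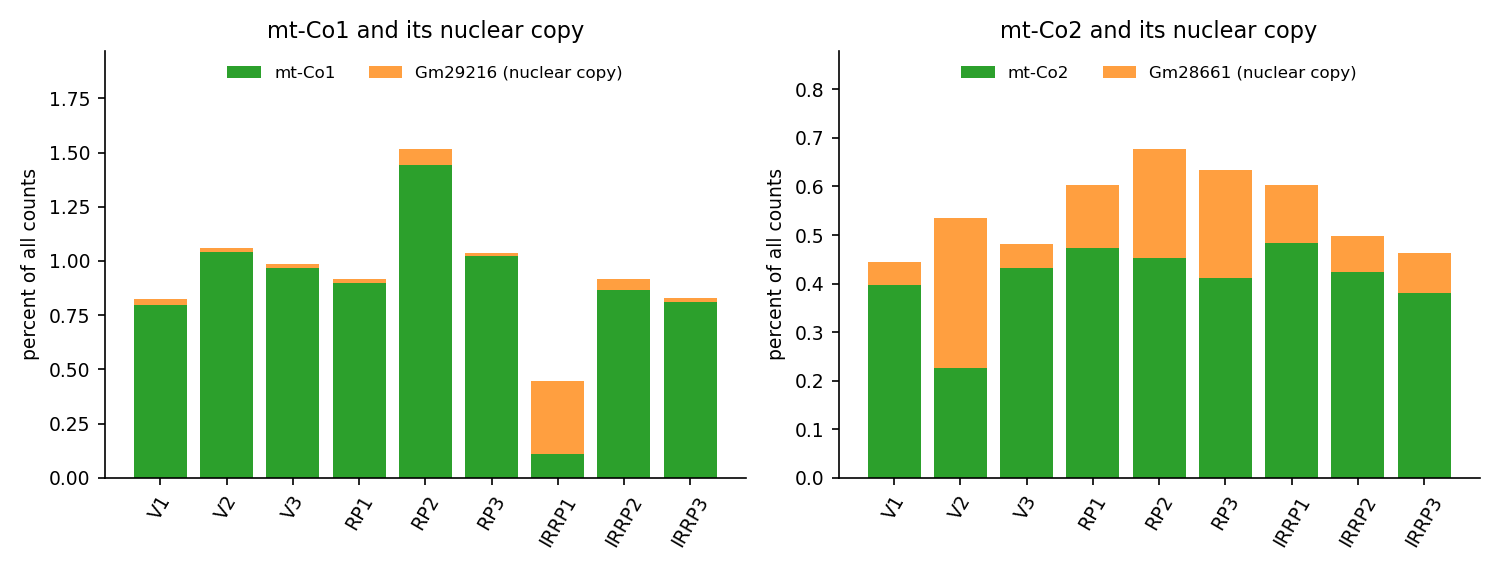
Percent of all counts assigned to mt-Co1 and its nuclear copy Gm29216 (left) and to mt-Co2 and its nuclear copy Gm28661 (right) in each tumor, stacked (V for vehicle, RP for R788 + anti-PDL1, IRRP for irradiated, each with its replicate number). The copy holds 75.6% of the mt-Co1 sum in the first irradiated library and 57.8% of the mt-Co2 sum in vehicle replicate 2.

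The nuclear genes that serve the mitochondrial genome were followed through lists. None of the 19 tested genes for mitochondrial DNA upkeep and transcription, the 29 for mitochondrial RNA processing and decay, the 9 regulators of mitochondrial biogenesis, the 77 nuclear-encoded respiratory chain subunits, the 78 mitochondrial ribosomal proteins or the 14 protein quality control genes was called by edgeR in any comparison. Unadjusted p-values under 0.05 in R788 + anti-PDL1 against vehicle numbered 0, 4, 1, 5, 3 and 0 for these lists, where 11.7% of all genes had one. The counts in irradiated tumors against vehicle were 0, 6, 2, 1, 3 and 0 (13.2% of all genes), and 5, 6, 3, 18, 17 and 2 without the first irradiated library (16.4%). In irradiated tumors against R788 + anti-PDL1 they numbered 0, 6, 3, 37, 27 and 2 (18.4%), and 2, 5, 3, 10, 11 and 1 without that library (16.1%).

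The medians of the nuclear-encoded lists are given beside those of the mitochondrial mRNAs, and the difference between lists was not tested. In R788 + anti-PDL1 against vehicle, nuclear respiratory chain subunits had a median log2 fold change of -0.42, with 1 of 77 above 0, beside 0.19 for the mitochondrial mRNAs. Mitochondrial ribosomal proteins had a median of -0.28, with 3 of 78 above 0. Nuclear subunits summed to 15900 CPM in vehicle replicate 1 and to 12000 and 12800 CPM in the other vehicle tumors. The lists were not refitted without vehicle replicate 1. Nuclear transcripts under 1000 bases had a median log2 ratio of 0.26 in that tumor and -0.25 in R788 + anti-PDL1 replicate 2. The part of transcript length in these medians was not tested. The nuclear medians in irradiated tumors against vehicle were 0.55 (67 of 77 above 0) and 0.37 (61 of 78), beside -0.23 for the mitochondrial mRNAs. Both nuclear medians turned negative without the first irradiated library, at -0.29 (4 of 77) and -0.24 (16 of 78), beside -0.03. In irradiated tumors against R788 + anti-PDL1, the medians were 0.92 (76 of 77 above 0) and 0.65 (72 of 78), beside -0.51 for the mitochondrial mRNAs. The summed level of the 79 nuclear subunits was 24200 CPM in the first irradiated library, 11900 and 12100 CPM in the other irradiated tumors, 10500 to 11400 CPM in R788 + anti-PDL1 and 12000 to 15900 CPM in vehicle. Without the first irradiated library the medians against R788 + anti-PDL1 were 0.14 (54 of 77) and 0.10 (46 of 78), beside -0.32. In that fit 1 of the 77, Ndufa4l2, listed by its symbol, was called higher (log2 fold change 2.28, adjusted p = 0.0288). It is known as a hypoxia-induced relative of a complex IV subunit.

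Of the factors named whatever their values, Tfam, which packages mitochondrial DNA and starts its transcription, had 60.8 to 65.5 CPM in vehicle, 55.9 to 63.2 CPM in R788 + anti-PDL1 and 79.3, 45.8 and 41.4 CPM in irradiated tumors. The mitochondrial RNA polymerase gene Polrmt had 31.9 to 70.1, 55.6 to 76.7 and 41.6 to 170 CPM, the last value in the first irradiated library. Lrpprc, whose product stabilizes mitochondrial mRNAs, had 221 to 264, 242 to 259 and 157 to 279 CPM. Slirp, its partner and a short transcript, had 24.5 to 59.7 and 23.5 to 39.5 CPM, then 235, 42.6 and 48.9 CPM in irradiated tumors. Ppargc1a, a coactivator of mitochondrial biogenesis, was near the floor, at 0 to 1.32 CPM in all tumors. It had 0 to 0.718 CPM in vehicle, 0.041 to 0.115 CPM in R788 + anti-PDL1 and 0.776 to 1.32 CPM in irradiated tumors, which overlapped neither other group. None of these factors differed between groups by an adjusted p under 0.05.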

How the data were processed

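Whole tumor RNA was sequenced after poly(A) selection per the labels, whose extraction text names bone marrow macrophages although the tissue is whole tumor. Per the labels and the methods of the study, the authors aligned reads to mm10 with STAR 2.6.1d and quantified them with Salmon 1.4.0. The annotation release and strandedness are not given in the sources used here, and the labels and methods differ on read type. Values in the deposited table are Salmon's estimated counts for each symbol, rounded to whole numbers and not normalized. Here genes were filtered with filterByExpr (minimum count 10), scaled by TMM and tested with edgeR 4.0.16 under R 4.3.3 (quasi-likelihood F test, robust, two-sided, all 9 libraries in 1 fit) with Benjamini-Hochberg adjustment over 15931 genes. Shares use total counts. DESeq2 1.42.0, limma-voom 3.58.1, other scalings and filters, a replicate block, and the omission of each library were tried. Salmon divides reads among identical sequences by an estimate, so counts of overlapping frames and nuclear copies are uncertain. Copies were found with blastn 2.17.0. All sequences come from GENCODE M21 transcripts. The 13 mRNAs, 2 rRNAs, copies of at least 100 counts, called list genes and 6 key factors were named. Members and lists were chosen with earlier results of these data known. On simulated counts the edgeR step was tested before use. Sequences of proteins were not used here. Not every marker gene examined is reported here.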

Additional observations from a re-analysis of the deposited data

How the results depend on the processing

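Across the alternatives, the mean share of counts kept its sign in all 3 comparisons (10 alternatives each). It ranged from 0.29 to 1.03 percentage points for R788 + anti-PDL1 against vehicle, -1.30 to -0.21 for irradiated tumors against vehicle, and -2.05 to -0.96 for irradiated tumors against R788 + anti-PDL1. The median log2 fold change of the mRNAs also kept its sign under 18 alternatives each, from 0.09 to 0.34, -0.52 to -0.03 and -0.71 to -0.31 in the same order. Scaling by total counts alone moved the median of all genes to 0.13, 0 and -0.14, against -0.02, 0.05 and 0.04.

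The count of members called was 0 under 16, 15 and 17 of 18 alternatives. The exceptions were DESeq2 (2 in irradiated tumors against vehicle, both rRNAs), voom with sample quality weights (5, 2 and 3) and the omission of vehicle replicate 1 (2 in each comparison with vehicle). Of all genes, DESeq2 called 3.84% in that comparison and the weighted fit 30.3%, 12.5% and 19.3%. The fits without vehicle replicate 1 called 0.449% and 0.132%. Leaving out single libraries gave 0 to 2 in both comparisons with vehicle. The weighted fit called mt-Co3 (0.32), mt-Nd3 (0.42) and mt-Nd5 (0.45) higher and both rRNAs lower in R788 + anti-PDL1 against vehicle, both rRNAs lower in irradiated tumors against vehicle, and mt-Co3 (-0.32), mt-Nd3 (-0.51) and mt-Nd5 (-0.44) lower in irradiated tumors against R788 + anti-PDL1. The cause was not tested. The replicate block, with the replicate number as a term, called 0 members in all 3 comparisons and 0, 3 and 0 of all genes, against 108, 7 and 1. Deviations of same-numbered tumors from their group means correlated from -0.05 to 0.23, so the numbers were not taken to pair the tumors.

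Several log2 fold changes near 0 changed sign, none of them called. In R788 + anti-PDL1 against vehicle, mt-Atp6 became 0.01 with DESeq2 and with RLE scaling, 0.08 with upper-quartile scaling, 0.14 with total counts, 0.02 without a count filter, 0.04 with 10 counts required in every library and 0.03 with only the 6 libraries compared. mt-Atp8 became 0.03 with upper-quartile scaling, 0.09 with total counts and 0.01 with the replicate block. Quality weights gave -0.09 for mt-Nd1, -0.03 for mt-Nd2 and -0.06 for mt-Co1. In irradiated tumors against vehicle they gave 0 for mt-Co3, -0.09 for mt-Nd3, 0.01 for mt-Nd5 and 0.07 for mt-Cytb. In irradiated tumors against R788 + anti-PDL1 they gave -0.01 for mt-Co2, 0.02 for mt-Atp6 and -0.33 for mt-Nd6, total counts gave -0.05 for mt-Co2 and -0.16 for mt-Nd6, and adding nuclear copies gave -0.03 for mt-Co2. Adding copies also moved mt-Co2 against vehicle from 0.39 to 0.21 in irradiated tumors.

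With 1 library left out at a time, values in R788 + anti-PDL1 against vehicle ran from -0.11 to 0.06 for mt-Atp6, -0.17 to 0.11 for mt-Atp8, -0.08 to 0.23 for mt-Co1, -0.05 to 0.36 for mt-Co2, -0.08 to 0.18 for mt-Nd1 and -0.06 to 0.16 for mt-Nd2. In irradiated tumors against vehicle they ran from -0.04 to 0.24 for mt-Co3, -0.13 to 0.43 for mt-Nd3, -1.08 to 0.02 for mt-Nd4l, -0.85 to 0.06 for mt-Nd4, -0.29 to 0.12 for mt-Nd5 and -0.52 to 0.16 for mt-Cytb, and each changed sign only without the first irradiated library. Against R788 + anti-PDL1 they ran from -0.10 to 0.37 for mt-Co2, -0.40 to 0.18 for mt-Nd3 and -0.54 to 0.46 for mt-Nd6. The omission of that library from the nuclear-encoded lists was chosen after seeing the data. The lowest count of an mRNA was 434 (mt-Nd4l in the first irradiated library), and a count of 0 at the tRNAs allows up to 3.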
